A study of Homo sapiens with 8 samples.

Results

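The genes described here lie on a stretch of the long arm of chromosome 1 whose RNA was higher in CHD7 knockout human embryonic stem cells (hESCs) than in wild type (WT) cells. They are the 334 protein-coding genes, of 57773 genes in the count files, that start between bases 143896448 and 211499957 of chromosome 1 (GRCh37), a span of 67.6 Mb from FAM72D to TRAF5, and that had a mean of at least 4 CPM in WT (CPM are read counts scaled to the same total in each library). The stretch was chosen by the change between these same CHD7 knockout and WT libraries, so that change is described without a test. Of the 700 protein-coding genes that start in the interval, 339 were under the CPM limit, and 23 at or above it were left out by the rule (11 of histone, collagen, laminin, integrin and ribosomal protein families, and 12 by name).

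All cells were of the H9 line, an established hESC line grown in mTesR1 medium, and each group had 2 libraries of rRNA-depleted RNA. WT cells carried an HA tag on CHD7 and were untreated. CHD7 knockout cells (CHD7 -/-) were untreated, HERVH knockdown cells were the tagged WT cells treated for 24 h with LNA-GapmeRs, which are antisense oligonucleotides against HERVH RNA, and HERVH element deleted cells were untreated and lacked an HERVH element on chromosome 2. HERVH is an endogenous retrovirus family transcribed in hESCs, and CHD7 is a chromatin remodeler. The edited lines were grown from single colonies; which clone gave which library was not given in the sources used here, so differences between lines that arose on picking a clone cannot be told apart from those of the edit, and p-values measure only the spread between these libraries. CHD7 RNA itself was 649.5 and 651.0 CPM in WT and 197.2 and 197.3 CPM in the knockout.

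A cell that gains 1 more copy of a chromosome segment has 3 templates where there were 2, and most genes on an extra segment are transcribed in rough proportion to their copies. Some genes do not follow, because feedback, a limiting regulator or a change of cell state sets their level. Extra copies of the long arm of chromosome 1 are among the recurrent changes of cultured hESCs. DNA copy number was not measured in these libraries, and its part in the values below was not tested. The ratio of 3:2, which is 1.5-fold or 0.58 on the log2 scale, is used here only as a ruler.

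Gene totals ranged from 14802049 to 23156445 counts, so that 3 counts correspond to 0.130 to 0.203 CPM per library. The summed level of 8 pluripotent stem cell markers was 5322 to 6494 CPM across the libraries, and no library exceeded 0.269 CPM for the sum of 5 trophoblast markers. The 5 ectoderm markers summed to 2.40 to 5.30 CPM and the 5 mesoderm markers to 2.41 to 5.63 CPM. The 6 fibroblast markers, of which 2 had at most 3 counts in every library, summed to 417.6 and 564.5 CPM in WT, 462.4 and 515.1 CPM in the knockout, and 358.4 to 673.5 CPM in the other libraries. The 5 endoderm markers summed to 1.56 to 5.93 CPM in WT, knockout and deleted cells and to 12.02 and 12.15 CPM after knockdown. The part of these markers in the values below was not tested.

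Promoters are shown first, for the genes that stand furthest from the ruler and for a pair of abundant genes in the class near it. RGS5 and SLC27A3 had the lowest knockout to WT ratios, PLEKHA6 and RGS16 the highest, and CCT3 (0.59 and 0.39 in knockout replicates 1 and 2) and KDM5B (0.73 and 0.80) fall in the class near 3:2. Each sequence runs from 250 bases before to 50 bases after a start annotated by RefSeq on GRCh38.p14. Capitals mark GGGCGG (the GC box, bound by SP1-type factors) and CCAAT, on either strand; TATAAA was searched in the same way and was in none of them.

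RGS5: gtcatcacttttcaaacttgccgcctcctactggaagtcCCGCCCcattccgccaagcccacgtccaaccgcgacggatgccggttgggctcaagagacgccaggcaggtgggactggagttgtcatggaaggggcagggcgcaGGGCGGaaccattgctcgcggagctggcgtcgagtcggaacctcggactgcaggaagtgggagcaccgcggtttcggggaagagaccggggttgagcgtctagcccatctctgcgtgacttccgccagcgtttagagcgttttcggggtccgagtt
SLC27A3: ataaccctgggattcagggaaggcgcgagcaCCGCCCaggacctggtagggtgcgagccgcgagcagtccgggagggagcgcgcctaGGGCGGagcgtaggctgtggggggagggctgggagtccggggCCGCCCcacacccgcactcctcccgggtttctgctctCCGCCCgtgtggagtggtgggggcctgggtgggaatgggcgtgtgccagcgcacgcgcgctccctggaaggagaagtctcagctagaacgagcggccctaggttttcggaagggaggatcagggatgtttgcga
PLEKHA6: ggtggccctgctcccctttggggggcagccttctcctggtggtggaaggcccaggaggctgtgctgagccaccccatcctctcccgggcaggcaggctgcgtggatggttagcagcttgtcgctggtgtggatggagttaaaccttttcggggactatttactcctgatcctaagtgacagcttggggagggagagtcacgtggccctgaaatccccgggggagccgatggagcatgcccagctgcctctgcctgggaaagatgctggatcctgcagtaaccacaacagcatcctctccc
RGS16: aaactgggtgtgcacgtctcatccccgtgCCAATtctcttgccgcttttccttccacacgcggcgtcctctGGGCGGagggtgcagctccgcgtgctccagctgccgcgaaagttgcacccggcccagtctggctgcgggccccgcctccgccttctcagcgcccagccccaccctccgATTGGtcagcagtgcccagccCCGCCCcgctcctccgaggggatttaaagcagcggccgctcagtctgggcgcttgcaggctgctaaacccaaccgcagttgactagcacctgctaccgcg
CCT3: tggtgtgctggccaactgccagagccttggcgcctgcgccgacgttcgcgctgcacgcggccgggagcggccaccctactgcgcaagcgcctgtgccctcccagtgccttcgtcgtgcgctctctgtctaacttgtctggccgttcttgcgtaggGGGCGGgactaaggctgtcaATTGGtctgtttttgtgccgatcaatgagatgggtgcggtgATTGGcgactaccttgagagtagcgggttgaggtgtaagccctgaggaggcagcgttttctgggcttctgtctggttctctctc
KDM5B: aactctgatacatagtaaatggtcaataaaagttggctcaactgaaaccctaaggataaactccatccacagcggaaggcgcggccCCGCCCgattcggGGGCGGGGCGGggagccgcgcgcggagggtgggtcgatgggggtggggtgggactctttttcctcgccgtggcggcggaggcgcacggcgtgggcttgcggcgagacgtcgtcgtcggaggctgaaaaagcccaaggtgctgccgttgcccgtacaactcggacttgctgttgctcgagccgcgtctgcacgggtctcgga

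On GRCh38.p14 they lie at chr1:163321686-163321985 (RGS5, minus strand, the first of 2 starts listed), chr1:153775157-153775456 (SLC27A3, plus strand), chr1:204359880-204360179 (PLEKHA6, minus strand), chr1:182604340-182604639 (RGS16, minus strand), chr1:156338243-156338542 (CCT3, minus strand) and chr1:202808372-202808671 (KDM5B, minus strand). The PLEKHA6 promoter had none of the motifs and 7 CpG dinucleotides, against 23 to 34 in the other 5. Over the 284 interval genes with a promoter in the table (91 of them with several starts, of which the first was used), GGGCGG was in 200 (70.4%), CCAAT in 114 (40.1%) and TATAAA in 12 (4.23%). Among all 27305 promoters of the same length the shares were 44.6%, 35.7% and 11.95%. That set was not limited to protein-coding genes or by level, as the interval genes were, so the sets are unlike and the difference was not tested. These are matches of letters in a window. Which start the cells used was not determined.

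Taken over the whole interval, the knockout libraries sat close to the ruler. The median change of the 334 genes from the mean of the WT libraries, in log2 CPM, was 0.62 in knockout replicate 1 (interquartile range 0.45 to 0.78) and 0.59 in replicate 2 (0.39 to 0.74), or 1.540-fold and 1.505-fold. The 9435 protein-coding genes of autosomes other than 1 and 16 with the same CPM limit had medians of -0.02 and -0.07. The genes took 2.66% of all gene counts in each WT library and 4.04% in each knockout library. Across genes, the spread of the change was 0.32 and 0.34 (SD) in the interval and 0.36 and 0.35 on the other autosomes, so the interval was displaced with about the same width. The plot of distributions shows this displacement.

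**Figure D1:**
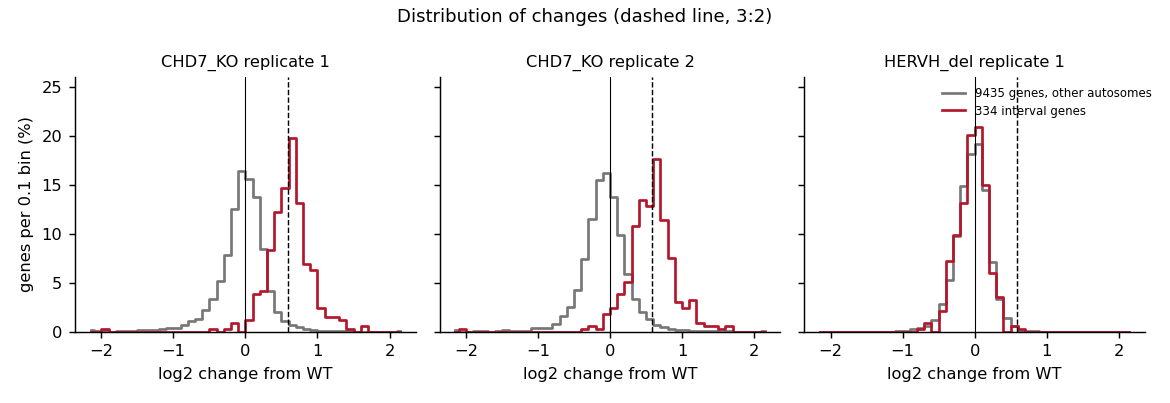
Distribution of the log2 change from the WT mean (horizontal axis) as the percent of genes in bins of 0.1 (vertical axis), for the 334 interval genes in red and 9435 genes of autosomes other than 1 and 16 in grey, in 3 libraries; values beyond 2.15 are drawn in the outermost bin. In both knockout replicates the red curve is centred near the dashed line at 0.58 with medians of 0.62 and 0.59, and in the HERVH deleted library both curves are centred near 0.

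In the other conditions the same genes had medians near 0. Their median changes were -0.02 and -0.03 in the HERVH deleted replicates and -0.03 and 0.03 in the knockdown replicates. With the same half-width of 0.29 around 0, 251 of the 334 genes (75.1%) were near 0 in both HERVH deleted replicates, and 108 (32.3%) in both knockdown replicates, whose median SD between replicates, 0.23, was above those of the knockout (0.10), WT (0.11) and deleted libraries (0.06). In the knockdown 44 genes (13.2%) were below that range in both replicates and 26 (7.78%) above it. In the deleted cells these were 12 and 5 genes. The counts within, below and above this range were not made over all genes. In knockdown replicates 1 and 2 the interquartile range was -0.29 to 0.20 and -0.33 to 0.27 for the interval genes. On autosomes other than 1 and 16 it was -0.31 to 0.19 and -0.35 to 0.37. In the deleted replicates it was -0.15 to 0.11 and -0.16 to 0.10, against -0.17 to 0.11 and -0.16 to 0.10. The summed level of the interval genes was 1.56 and 1.49 times the WT mean in the knockout, 0.99 and 0.96 in the knockdown and 1.014 and 0.996 in the deleted cells.

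Along the chromosome the change was even over most of the interval. Counting from the first interval gene in steps of 10 Mb, the medians in knockout replicates 1 and 2 were 0.59 and 0.55 in the first step, which held 65 genes, and 0.59 and 0.48 in the next, which held 108. From 20 to 50 Mb they lay between 0.56 and 0.64. From 50 to 60 Mb they were 0.73 and 0.74 (36 genes), and in the last step, to 67.6 Mb, 0.67 and 0.74 (42 genes). Beyond the end of the interval they were 0.46 and 0.38 from 70 to 80 Mb, 0.42 and 0.30 from 80 to 90 Mb, and 0.05 and 0.04 from 90 to 100 Mb. The 670 genes of the short arm had medians of -0.01 and -0.08. Since the interval was set on these changes, its ends are a description.

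**Figure D2:**
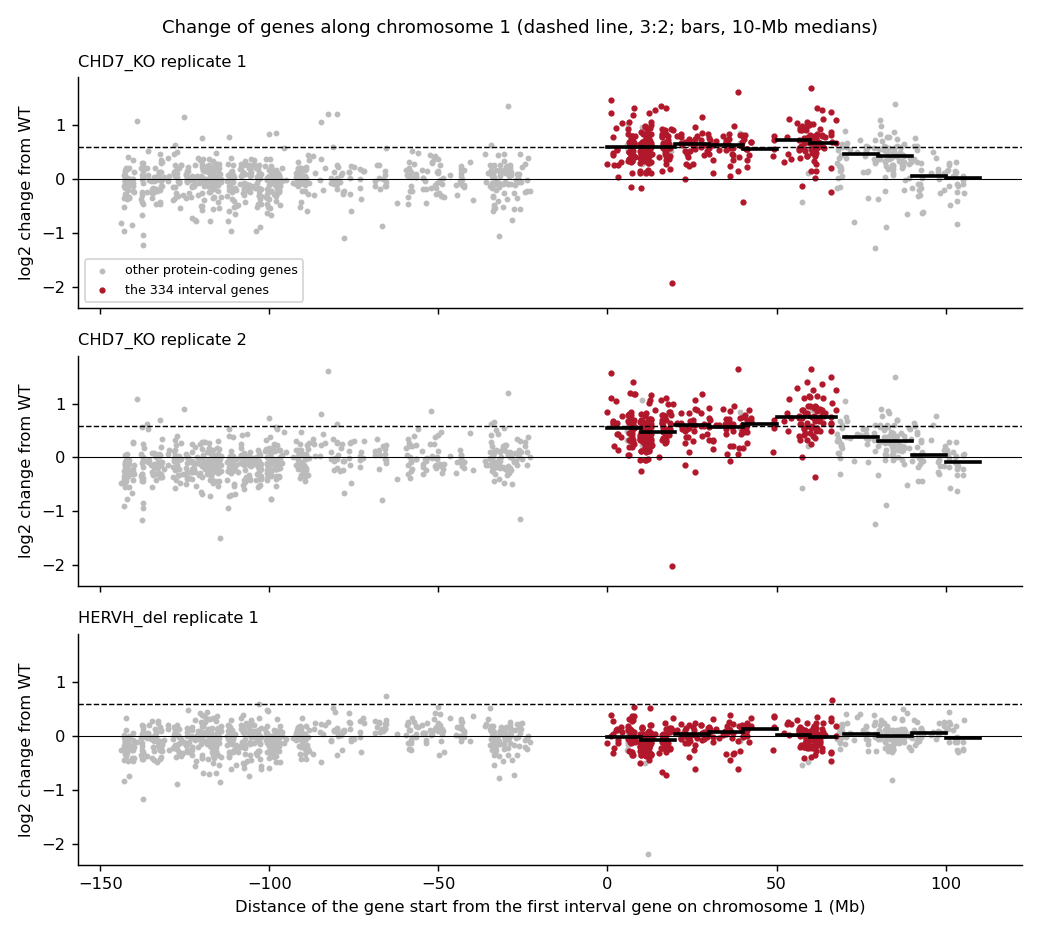
Log2 change from the WT mean (vertical axis) of protein-coding genes of chromosome 1 by distance of their start from the first interval gene in Mb (horizontal axis), in both CHD7 knockout replicates and 1 HERVH deleted replicate; red points are the 334 interval genes, grey points other genes of the chromosome, black bars medians in 10-Mb steps (interval genes only from 0 to 67.6 Mb), values beyond 2.2 drawn at 2.2. In the knockout the bars stay between 0.48 and 0.74 inside the interval and reach 0.02 and -0.08 in the last step, while in the deleted library they lie near 0 throughout.

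The 3 interval genes nearest its end were higher, in both replicates, than the 3 measured genes after it. The last interval genes were SERTAD4, with changes of 0.68 and 1.01 in knockout replicates 1 and 2, RCOR3 with 1.10 and 1.25, and TRAF5 with 0.66 and 0.88. Just after them, SLC30A1 had -0.16 and 0.31, NEK2 had 0.29 and 0.44, and LPGAT1 had 0.02 and 0.07. They were followed by INTS7 with 0.54 and 0.37 and DTL with 0.25 and 0.07. At the start, FAM72D had 0.27 and 0.83 and NBPF9 1.47 and 1.56. The 3 measured genes before FAM72D start between bases 120191034 and 120837756, on the short arm. They are therefore not close neighbours of FAM72D, which starts at base 143896448. Of these, PHGDH had -0.22 and -0.14, NOTCH2 0.39 and 0.38, and FAM72B, of the same family as FAM72D, -0.22 and 0.01. At the CPM limit, SPATA46, KIFAP3 and MFSD4A were just inside at 4.02, 4.06 and 4.22 CPM in WT, and TNNI1, MTMR11 and SH2D2A were just outside at 3.80, 3.87 and 3.89 CPM.

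Against WT, most genes were near the ruler in both replicates. A gene was placed near 3:2 when both knockout replicates were between 0.29 and 0.88 above the WT mean in log2 CPM (1.22-fold to 1.84-fold), low when both were under that range, high when both were over it, and mixed otherwise. Of the 334 genes, 209 (62.6%) were near 3:2, 18 (5.39%) were low, 29 (8.68%) were high and 78 were mixed. The share near 3:2 was 48.8% (163 genes) when each knockout replicate was set against the WT replicate of the same number, and 40.7% (136 genes) against the HERVH knockdown libraries. Of all 23474 genes tested, 6.94% were near 3:2, 65.5% low and 3.40% high by the same limits. After the interval, up to 90 Mb from its first gene, 45 of 103 protein-coding genes at the same CPM limit (43.7%) were near 3:2, 29 low and 3 high. Of the 78 mixed genes, 44 had 1 replicate low and the other near, 33 had 1 high and the other near, and 1 had 1 low and 1 high. On the other autosomes, 60.6% of genes were within the same half-width of 0 in both replicates, 9.84% were under it and 4.99% over it.

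The groups separated for most genes. Both knockout libraries were above both WT libraries for 307 of the 334 genes (91.9%), against 21.5% of all genes tested. Both were below for 2 genes, RGS5 and SLC27A3, and the groups overlapped for 25. How many genes were near 3:2 moved with their level. When the genes were split evenly by WT level, 46.8% of the lowest group (median 11.1 CPM), 64.9% of the middle group and 75.9% of the highest group (median 126.2 CPM) were near 3:2. From 50 CPM upwards, 111 of 148 genes were near 3:2, 6 were low and 4 were high.

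**Figure D3:**
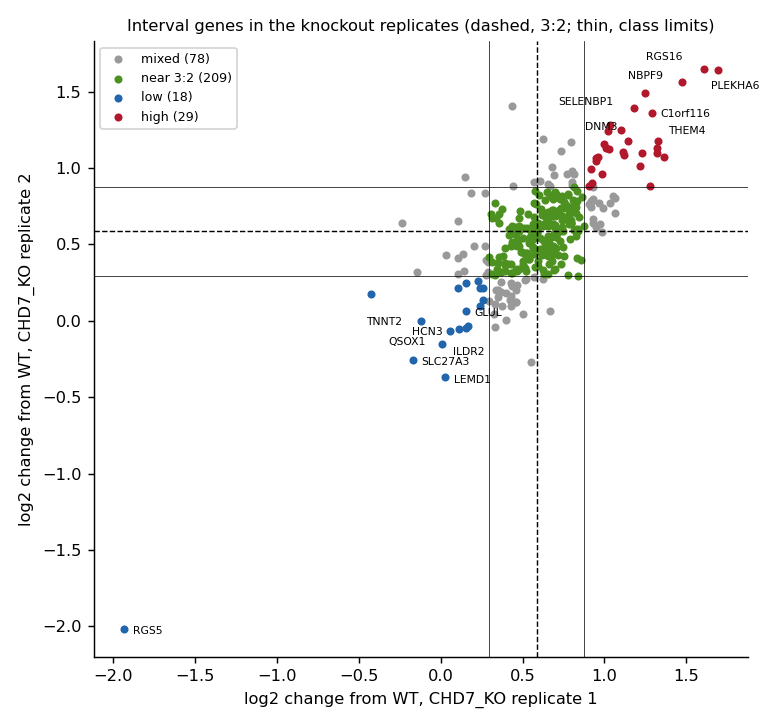
Log2 change from the WT mean of each of the 334 interval genes in CHD7 knockout replicate 1 (horizontal axis) and replicate 2 (vertical axis), coloured by class. The 209 genes near 3:2 fill the central square between 0.29 and 0.88, RGS5 stands alone at -1.94 and -2.02, and PLEKHA6 and RGS16 lie at the upper right.

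The abundant genes give the clearest readings. NUCKS1, a chromatin-associated DNA repair protein, had the most counts, with 1338 and 1084 CPM in WT and 2077 and 1955 CPM in the knockout. PRRC2C, a protein of stress granules, had 1112 and 1048 CPM in WT and 1785 and 1619 CPM in the knockout. KDM5B, a histone H3K4 demethylase, had 599.1 and 605.1 CPM in WT and 997 and 1046 CPM in the knockout. For these 3 genes every knockout library was above every WT library, with fitted log2 fold changes of 0.73 (SE 0.16), 0.66 (SE 0.25) and 0.76 (SE 0.13). ADAR, the RNA adenosine deaminase, had 593.1 and 611.4 CPM in WT and 983 and 837.0 CPM in the knockout. TPR, a nuclear pore basket protein, had 464.7 and 405.5 CPM against 699 and 697 CPM. TPM3, a tropomyosin, had 422.3 and 388.7 CPM against 638 and 544.5 CPM. All of these were near 3:2 in both replicates. DHX9, an RNA helicase, was the exception among the 8 genes with the most WT counts: it had 565.3 and 621.6 CPM in WT and 782.5 and 671.6 CPM in the knockout, changes of 0.40 and 0.18 that put it in the mixed class.

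RGS5 went furthest against the interval. It encodes a regulator of G protein signaling that speeds GTP hydrolysis by G alpha subunits, and it is located at chr1:163080911-163291581 on GRCh37, on the minus strand. In WT it had 67.2 and 68.8 CPM, and in the knockout 17.7 and 16.7 CPM, a level 0.25 times that of WT, with a fitted log2 fold change of -1.98 (SE 0.21). Deleted cells had 73.7 and 69.7 CPM, and knockdown cells 29.5 and 47.9 CPM. The knockout values lie under all 6 others, and both deleted libraries lie slightly above both WT libraries.

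SLC27A3 was the other gene below WT. A member of the fatty acid transport family, it is located at chr1:153746830-153752633, on the plus strand. It had 26.9 and 29.7 CPM in WT and 25.05 and 23.6 CPM in the knockout (log2 fold change -0.22, SE 0.21). Its HERVH deleted libraries had 22.1 and 25.3 CPM, so the knockout lies within the range of the other untreated cells. Its departure is from the ruler, not from WT.

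GLUL, IVNS1ABP, BCL9, QSOX1 and SSR2 were low genes with many counts. GLUL, glutamine synthetase, had 370.7 and 374.7 CPM in WT and 414.3 and 390.1 CPM in the knockout, a ratio of 1.08. IVNS1ABP, a kelch-repeat protein, had 379.2 and 327.7 CPM in WT and 412.9 and 422.7 CPM in the knockout, a ratio of 1.19. BCL9, a coactivator of beta-catenin in Wnt signaling, had 135.9 and 125.9 CPM in WT and 156.7 and 143.8 CPM in the knockout. These 3 were slightly higher in the knockout, with no overlap, and stayed short of 1.22-fold. QSOX1, an enzyme that forms disulfide bonds in secreted proteins, had 121.2 and 133.8 CPM in WT and 132.4 and 121.7 CPM in the knockout. SSR2, a subunit of the translocon-associated complex, had 96.0 and 114.2 CPM against 117.3 and 102.3 CPM. The groups overlapped for both.

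Low genes were ranked by the replicate nearer to 3:2, and high genes likewise. By that ranking the other 4 of the lowest 8 genes were at low levels. TNNT2, cardiac troponin T, had 17.3 and 17.0 CPM in WT and 15.8 and 17.2 CPM in the knockout. HCN3, a cyclic nucleotide-gated channel, had 11.4 and 15.7 CPM in WT and 14.4 and 12.9 CPM in the knockout. LEMD1 had 8.08 and 6.78 CPM against 7.53 and 5.70 CPM. ILDR2 had 5.82 and 3.27 CPM against 4.39 and 3.93 CPM, and its WT libraries differed from each other by more than the groups did. The remaining low genes were LHX4, a LIM homeobox factor, GPR161, a receptor that restrains Hedgehog signaling, COLGALT2, ETNK2, GPR89A, METTL25B and S100A13.

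At the other end, PLEKHA6 was the furthest over the ruler. It encodes a pleckstrin homology domain protein and is located at chr1:204187981-204346793, on the minus strand. It had 43.3 and 40.5 CPM in WT and 135.8 and 130.6 CPM in the knockout, 3.18-fold, with a fitted log2 fold change of 1.67 (SE 0.19). Its HERVH deleted libraries had 42.0 and 40.8 CPM and its knockdown libraries 22.8 and 34.3 CPM. The knockout libraries were above all 6 others by a wide margin.

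RGS16, of the same family as RGS5, differed from WT in the other direction. It is located at chr1:182567758-182573524, on the minus strand, and had 8.91 and 7.86 CPM in WT and 25.7 and 26.4 CPM in the knockout (3.09-fold, log2 fold change 1.63, SE 0.23). SELENBP1, a selenium-binding protein, had 8.22 and 9.82 CPM against 20.5 and 23.7 CPM. For both genes every knockout library was above all 6 other libraries. C1orf116 had 8.63 and 9.31 CPM in WT and 22.0 and 23.1 CPM in the knockout. DNM3, a dynamin, had 8.96 and 8.75 CPM against 19.7 and 20.1 CPM. THEM4, a thioesterase, had 9.37 and 8.09 CPM against 22.0 and 19.8 CPM, and its deleted libraries, at 12.6 and 12.6 CPM, were also above WT.

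**Figure D4:**
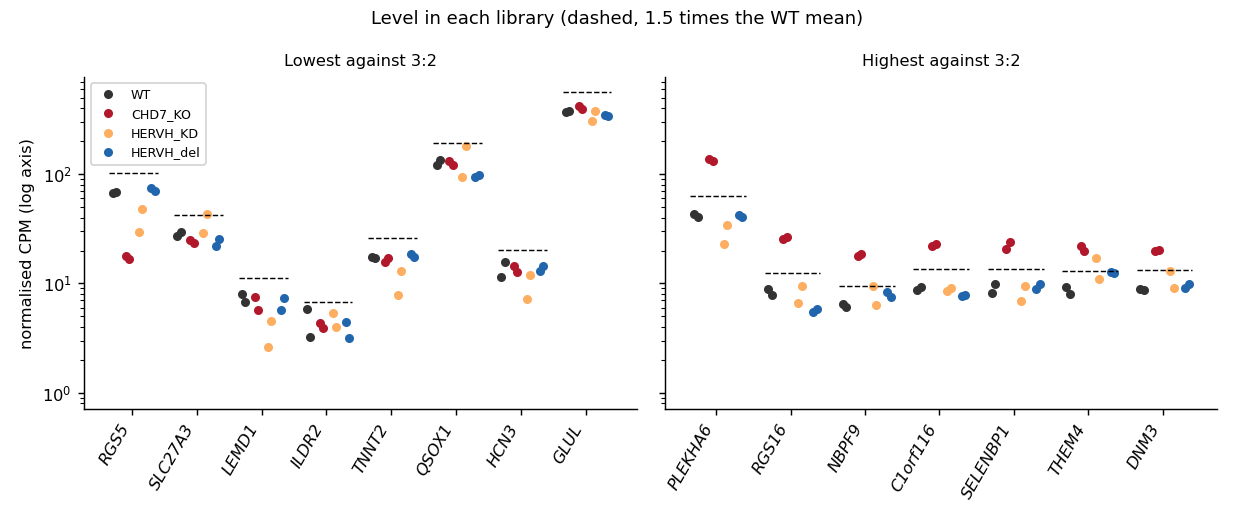
Normalised CPM on a log axis in each of the 8 libraries for the 8 lowest genes and 7 of the highest genes against 3:2, ranked by the replicate nearer to 3:2; each point is 1 library and the dashed line is 1.5 times the WT mean. RGS5 knockout libraries lie at 17.7 and 16.7 CPM under all others, the other low genes overlap or lie near WT, and the high genes lie above their dashed lines in both knockout libraries.

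More abundant high genes were few. NAV1, a neuron navigator that binds microtubules, had 308.7 and 334.3 CPM in WT and 603 and 592.2 CPM in the knockout, just over the limit at 1.86-fold. PDE4DIP, a centrosome and Golgi protein, had 112.9 and 103.2 CPM against 253.4 and 230.9 CPM. ATP2B4, a plasma membrane calcium pump, had 111.1 and 90.5 CPM against 201.5 and 220.0 CPM. KIRREL1, an adhesion molecule, had 76.6 and 95.4 CPM against 207.1 and 157.9 CPM. These 4 are the high genes from 50 CPM upwards. NR5A2, a nuclear receptor that acts on the pluripotency gene POU5F1, had 21.1 and 17.5 CPM in WT and 39.4 and 46.8 CPM in the knockout, and NUF2, a kinetochore protein, had 33.6 and 22.8 CPM against 52.3 and 55.2 CPM.

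Genes with near-identical copies are uncertain, since reads could be split or lost between copies. The interval was not searched for all such genes, and 9 were looked at. Of these, NBPF9 (2.86-fold), NBPF12 (1.99-fold) and PDE4DIP (2.24-fold) were high and GPR89A (1.18-fold) was low. NBPF14, FAM72A and SRGAP2 were near 3:2, and FAM72D and NBPF20 were mixed. ZBED6 (2.11-fold) is also uncertain, since it starts at the same base as ZC3H11A in the annotation and lies within it.

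The comparison group sets part of the class. Against the HERVH deleted libraries in place of WT, 9 of the 18 low genes were low again (RGS5, SLC27A3, GLUL, TNNT2, LHX4, ILDR2, HCN3, LEMD1 and COLGALT2), as were 21 of the 29 high genes, PLEKHA6, RGS16, NR5A2 and ATP2B4 among them. BCL9, QSOX1, IVNS1ABP and SSR2 were no longer low, and NAV1, NUF2, KIRREL1 and THEM4 no longer high. Of the 209 genes near 3:2, 169 were near it again. Against the knockdown libraries, whose replicates differed most, 111 of the 209 were near 3:2 again, and 9 of the 18 low and 22 of the 29 high genes were again low or high. The low genes kept there included QSOX1, SSR2 and GPR89A, and TNNT2, HCN3, LEMD1 and COLGALT2 were no longer low. RGS5, SLC27A3, GLUL, LHX4 and ILDR2 were low against all 3 groups. The 3 comparisons share the same 2 knockout libraries and so are not independent. Against the knockdown libraries 45 genes were low and 74 high, so either class was easier to reach there.

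Grouped by role, the largest shares near 3:2 were among genes of protein turnover, mitochondria, the cell cycle and RNA processing. Over all 334 genes the share was 62.6%. All 17 genes of the proteasome and ubiquitin system were near 3:2, with medians of 0.64 and 0.55 in knockout replicates 1 and 2. They ran from UBQLN4 (0.44 and 0.31), a ubiquilin that ferries clients to the proteasome, to YOD1 (0.81 and 0.79), a deubiquitinase. Of 19 mitochondrial proteins, 17 were near 3:2 and 2 mixed, the mixed being MRPS14 (0.35 and 0.15), a mitochondrial ribosomal protein, and MSTO1 (0.93 and 0.67). Of 22 genes of RNA splicing and processing, 17 were near 3:2 and 5 mixed. SF3B4, a subunit of the SF3B splicing complex, was the lowest of these at 0.33 and 0.04, and ZC3H11A, an mRNA export factor, the highest at 0.81 and 0.96. Of 13 cell cycle genes 11 were near 3:2, with CKS1B, a cyclin-dependent kinase subunit, at 0.34 and 0.34 the lowest. None of these 4 lists held a low gene, against 18 of all 334, and NUF2 was their only high gene. These lists were put together for their large shares near 3:2, so having few low or high genes follows largely from that choice.

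In the other role lists the shares near 3:2 were smaller than in those 4. The shares of the chromatin and of the membrane traffic lists were close to the 62.6% of all 334 genes. Of 32 kinases, phosphatases, receptors and ligands, 16 were near 3:2, 2 were low, 4 high (RGS16, DUSP23, SEMA4A and DYRK3) and 10 mixed, with medians of 0.65 and 0.68. Of 40 metabolic enzymes and transporters, 23 were near 3:2, 5 low (SLC27A3, COLGALT2, QSOX1, GLUL and ETNK2), 2 high (ATP2B4 and THEM4) and 10 mixed, with medians of 0.61 and 0.47. Of 40 chromatin and transcription genes, 24 were near 3:2, 2 low (BCL9 and LHX4), 3 high (NR5A2 and MEF2D among them) and 11 mixed. In all 40 both knockout libraries were above both WT libraries, against 91.9% of all 334 genes. The same held for 33 of the 40 metabolic genes, 28 of the 32 kinases, phosphatases, receptors and ligands, and 28 of the 30 membrane traffic and cytoskeleton genes. Of 30 genes of membrane traffic and the cytoskeleton, 19 were near 3:2, 2 low (TNNT2 and GPR89A), 3 high (RAB29, KIFAP3 and NAV1) and 6 mixed. The 4 measured S100 genes of 16 listed, which encode small calcium-binding proteins, ran from S100A13 (0.15 and -0.05) to S100A11 (0.80 and 1.17), whose WT libraries differed at 43.8 and 22.0 CPM. The lists were drawn up with earlier results known, share some genes and differ in level, so the difference between them was not tested.

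**Figure D5:**
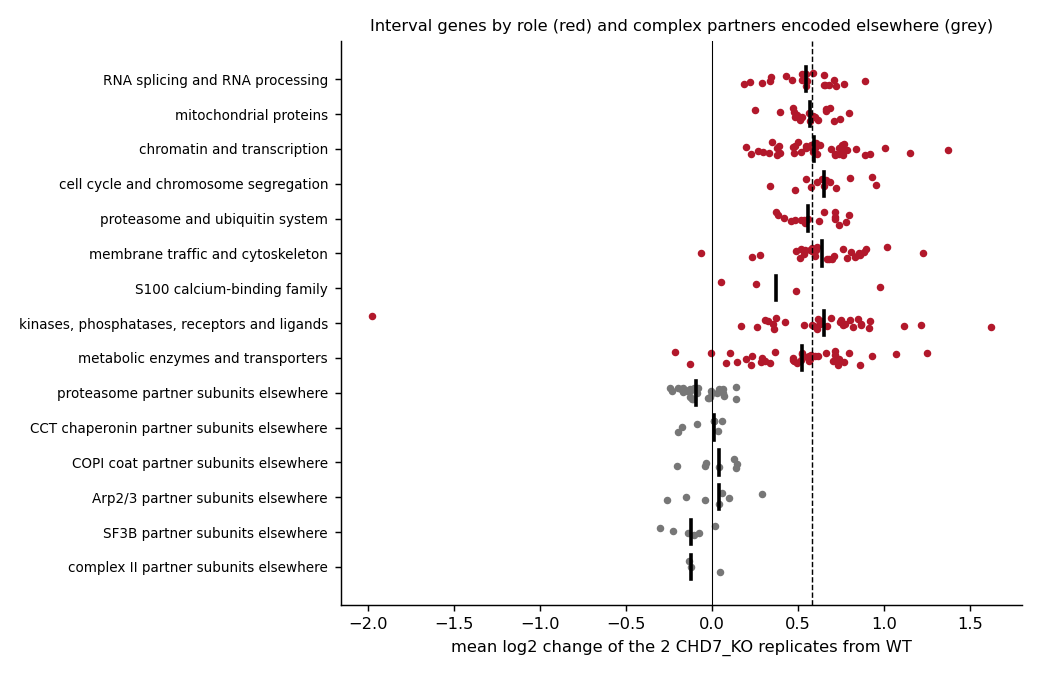
Mean log2 change of both CHD7 knockout replicates from WT (horizontal axis) for interval genes by role (red) and for subunits of the same protein complexes encoded elsewhere (grey); each point is a gene, black bars are medians and the dashed line is 3:2. All red medians except that of the 4 S100 genes (0.37) lie between 0.52 and 0.66, and the grey medians lie between -0.12 and 0.04.

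Subunits of shared complexes showed the interval against the rest of the genome. PSMB4 and PSMD4, a core subunit and a ubiquitin receptor of the proteasome, had changes of 0.52 and 0.32, and of 0.71 and 0.55, in knockout replicates 1 and 2. The 28 proteasome subunits encoded elsewhere had medians of -0.01 and -0.16. CCT3, of the chaperonin that folds actin and tubulin, had 0.59 and 0.39 against medians of 0.07 and -0.09 for 7 partners. COPA, of the COPI vesicle coat, had 0.58 and 0.58 against 0.08 and 0.00 for 7 partners. ARPC5, of the Arp2/3 complex, had 0.68 and 0.49 against 0.09 and -0.02 for 7 partners, and SDHC, of respiratory complex II, had 0.64 and 0.50 against -0.05 and -0.22 for 3. SF3B4 was nearest to its partners, at 0.33 and 0.04 against -0.03 and -0.20 for 6. In each complex the interval subunit was higher relative to WT than the median partner. The interval was chosen by its change in the knockout and the partners lie outside it. That difference therefore follows largely from the choice and is a description.

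Across the 334 genes, the mean knockout change had no clear relation to level (Spearman rho -0.03 with log2 WT CPM) and weak ones to gene span (0.31), exon length (0.27), distance along the interval (0.25) and GC content (-0.16). The points share the same libraries and are neighbours on a chromosome. Split evenly into 3 groups by span, the shortest genes had medians of 0.52 and 0.44, and the longest 0.67 and 0.66.

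The comparisons that did not choose the genes could be tested. In HERVH element deleted cells 0 of the 334 genes were differentially expressed at a false discovery rate (FDR) under 0.01 and a 2-fold change by edgeR's quasi-likelihood test (0.0298% of all genes tested), 0 at an FDR under 0.05 (0.0724% of all) and 3 at an unadjusted p under 0.05 (2.63% of all). DESeq2's Wald test also called 0. The 3 genes were GPATCH4, a nucleolar G-patch protein, with 58.5 and 53.3 CPM in WT and 79.9 and 86.2 CPM in deleted cells, THEM4, and RGS16, with 8.91 and 7.86 CPM in WT and 5.43 and 5.88 CPM in deleted cells. Their log2 fold changes were 0.57 (SE 0.16), 0.53 (SE 0.24) and -0.57 (SE 0.24), and none passed adjustment over all genes (FDR of 1 for each, edgeR).

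After HERVH knockdown 2 of the 334 genes (0.599%) were called at the first of these limits, both lower. Of all genes tested, 0.217% were called in either direction. That set also held other gene types and genes under the CPM limit, so the sets are unlike and the difference was not tested. C1orf21, at chr1:184356163-184598153, had 64.7 and 61.4 CPM in WT and 31.4 and 28.3 CPM in the knockdown (log2 fold change -1.08, SE 0.17, FDR = 0.00875, edgeR quasi-likelihood test). The groups did not overlap. The calls of both genes were lost when either WT library was left out (0 genes called) and in a fit of the 4 libraries alone (0); the call of C1orf21 was also lost with a filter of CPM over 1. In the knockout, C1orf21 had 105.8 and 87.9 CPM. These comparisons share the WT libraries.

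At an FDR under 0.05, 13 genes changed after knockdown (3.89%, against 2.15% of all), 3 up and 10 down, and at an unadjusted p under 0.05 there were 75, or 27 up and 48 down, against 19.0% of all genes. The 3 that rose were LMNA, lamin A/C of the nuclear envelope, from 42.7 and 43.4 CPM to 73.0 and 111.5 CPM (FDR = 0.0186, edgeR), NES, nestin of neural progenitors, from 272.3 and 306.0 CPM to 396.3 and 730.6 CPM (FDR = 0.0474, edgeR), and METTL13, a methyltransferase, from 59.6 and 72.3 CPM to 102.2 and 127.5 CPM (FDR = 0.047, edgeR). The knockdown replicates of LMNA and NES differed widely from each other. Among those that fell, KIAA0040 went from 24.5 and 18.6 CPM to 7.67 and 9.18 CPM and NMNAT2, an NAD synthesis enzyme of neurons, from 31.8 and 27.6 CPM to 13.4 and 15.1 CPM (FDR = 0.0133 for each, edgeR). Others that fell were PPP1R12B, VAMP4, PPFIA4, ASTN1, KCNT2 and OLFML2B. Across the interval genes, the difference between knockdown replicates 2 and 1 was related to GC content (Pearson's r = 0.65, Spearman rho = 0.64), and its part in the knockdown values was not tested.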

How the data were processed

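Counts per gene were deposited by the authors for 8 libraries of H9 cells, 2 in each of 4 groups; reads had been mapped with STAR to hg19 with Ensembl GRCh37.75 annotation and counted with HTSeq-count (versions and strand setting not given in the sources used here, so overlapping and antisense genes are uncertain). The counts were whole numbers, not normalised. Reads outside genes (34.9% to 42.5%) and ambiguous reads (3.81% to 4.75%) were left out of totals. The limit of 3 counts covers counting error only.

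Genes were placed with GENCODE v44 lifted to GRCh37, which held 55538 of 57773 identifiers (96.1%). Counts were scaled by TMM in edgeR 4.0.16 (R 4.3.3). A change is a library's log2 CPM (prior count 2) minus the mean of the WT libraries. HERVH deleted and knockdown cells were tested against WT with glmQLFit and glmQLFTest, group as the only factor, all 8 libraries in the fit (4 residual degrees of freedom), filterByExpr (23474 genes, all 334 interval genes among them) and Benjamini-Hochberg adjustment. The step was tested on simulated data. DESeq2 1.42.0, other scalings, priors, filters and left-out libraries were alternatives. Genes named were the 8 lowest and 8 highest against 3:2 (some items are not reported here), the 8 with most WT counts, the lowest, median or highest of each role list, complex subunits, genes at the limits and genes called; the copied and overlapping genes and other examples were named after their values were seen. The genes and lists were chosen with earlier results of these data known.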

Additional observations from a re-analysis of the deposited data

How the results depend on the processing

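The median change of the interval genes in the knockout, 0.61 over both replicates, was 0.65 after centring on the median of autosomes other than 1 and 16, which were at -0.02 and -0.07, and 0.59 to 0.64 with each library left out. The number of genes near 3:2 was 209, 178 to 255 with a library left out, and 136 (40.7%) against the HERVH knockdown libraries. The low genes, 18, were 8 of 238 genes from a WT CPM of 20, 19 to 46 with a library left out and 45 against the knockdown libraries; the high genes, 29, were 13 of 238, 30 to 49 and 74. Leaving out a knockout replicate raises low and high counts by construction, since 1 library then decides the class, and the cause of the other shifts was not tested. Comparison with HERVH deleted or knockdown libraries for these counts was chosen after seeing the data. With no library left out, both knockout libraries stayed above both compared libraries for 259 to 316 of the 334 genes. With a library left out, the remaining knockout libraries were above the remaining WT libraries for 315 to 319, an easier condition. The HERVH deleted median, -0.0253, was -0.0112 with RLE scaling, -0.00534 after centring, and -0.0362 to -0.000773 with a library left out. Of the 2 genes called after knockdown, the counts were 13 at an FDR under 0.05, 1 with a filter of CPM over 1, 8 with no filter, 8 with DESeq2, 0 in a fit of the 4 libraries and 0 to 12 with a library left out (0 without either WT library, 11 without knockdown replicate 1, 12 without replicate 2). The replicate numbers were taken to name samples only. Differences between replicates 1 and 2 of WT and of each other group correlated at -0.06 to 0.12 over all genes (Pearson's r; Spearman rho -0.08 to 0.19). Over the interval genes, WT and the knockout correlated at -0.21 (Pearson's r). Whether libraries of the same number shared a batch was not tested. With each replicate set against the WT replicate of the same number, the knockout median was 0.59 with 163 genes (48.8%) near 3:2, and the deleted median was -0.0356. With replicate number as a blocking term in the fit (the block), 2 genes were called after knockdown and 0 after deletion. No genes were called in deleted cells under any of the 11 alternatives run. Depth limits the low-level genes most.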
